A study of Rattus norvegicus with 9 samples.

Results

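The genes described here are the nuclear-encoded subunits of the respiratory chain and the ATP synthase, read across 3 culture media of rat pXEN cells, an extraembryonic endoderm (XEN) type of stem cell. They were taken by symbol (Nduf genes of the a, b, c, s and v series, Sdha to Sdhd, and symbols starting with Uqcr, Cox4 to Cox8 or Atp5) with a count of at least 10 in at least 3 libraries. Of 80 matching symbols, 69 met that rule, out of 17315 genes in the tables: 32 of complex I, 4 of complex II, 8 of complex III, 10 of complex IV and 15 of complex V. The study grew the line RX1, from the WKY rat strain, in the media T, LPE and CPE, with 3 RNA-seq libraries of total RNA each. All 9 libraries therefore share 1 cell line, and all 3 media contained Pdgf and Egf at 10 ng/ml. In T, the serum medium, cells grew on fibronectin (100 ng/ml) in DMEM and MCDB with 2% fetal bovine serum, 0.5 µM dexamethasone (a glucocorticoid) and 10 ng/ml Lif. LPE was serum-free, on collagen I (10 µg/ml) in DMEM/F12 and Neurobasal with the N2 and B27 supplements and 10 ng/ml Lif. CPE was LPE with 1 µM Chir99021, an inhibitor of the kinase Gsk3, in place of Lif. LPE and CPE thus differed from T in serum, dexamethasone, coating, base medium and supplements together, and the effects of these cannot be told apart. The labels do not say that the 3 libraries of a medium came from separate cultures, so a p-value here reflects only how much these libraries vary, and that variation may be technical. Libraries are written T1 to T3, LPE1 to LPE3 and CPE1 to CPE3 below.

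As background, the respiratory chain of the inner mitochondrial membrane passes electrons from NADH (through complex I) and succinate (through complex II) to ubiquinone, then through complex III and cytochrome c to complex IV, which reduces oxygen. Complexes I, III and IV pump protons, and complex V, the ATP synthase, uses the proton gradient to make ATP. Most subunits are encoded in the nucleus, and the core subunits encoded in mitochondrial DNA are not analysed here. Nuclear promoters of such genes are known to be bound by the factors NRF1, the ETS factor GABP, YY1 and the oestrogen-related receptors.

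The libraries held 1698764 to 2161228 gene reads in T, 3119049 to 3233526 in LPE and 3127352 to 4418465 in CPE. Reads mapping to several places, which enter no gene, made up 64.9% to 67.6% of all reads in T, 54.2% to 59.9% in LPE and 51.7% to 58.2% in CPE. The 9 endoderm markers checked, such as Gata4, Gata6 and Sox17, were all detected in every medium, with a summed level of 7370 to 7722 counts per 1e6 gene reads (CPM) in T, 14903 to 17375 in LPE and 9520 to 10862 in CPE. Col4a1 gave the largest part, at 2932 to 3361 CPM in T, 8718 to 10331 in LPE and 5061 to 5539 in CPE. The markers did not move together: Col4a1, Lamc1, Gata6 and Foxa2 were higher than T in every serum-free library. Pdgfra was lower than T in every one. In every CPE library Sox17 and Dab2 were lower than T and Sox7 was higher, while Gata4 overlapped T in both media. Of 6 epiblast markers, Nanog, Sox2 and Fgf4 had 0 counts in every library, and the summed level of the list was 112 to 168 CPM in T, 838 to 983 in LPE and 76.4 to 119 in CPE. Dnmt3l gave all of that sum in LPE and most of it in T and CPE. The 6 fibroblast markers summed to 1.39 to 33.0 CPM in T, 0 in all LPE libraries and 0 to 6.40 in CPE, with Col1a2, Dcn and Lum at 0 in every library. The 3 trophoblast markers summed to at most 2.72 CPM for T, 3.09 for LPE and 28.8 for CPE. Of the 5 blood and endothelial markers, Ptprc and Cd34 were at 0 everywhere, whereas Pecam1, Cdh5 and Tek were detected in every library. Their list summed to 149.6 to 157 CPM for T, 149 to 207 for LPE and 57.2 to 77.1 for CPE. The part of these differences in the results below was not tested.

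Most of the genes that differed between media were lower in the serum-free media than in T, and a few rose. In LPE against T, 41 of the 69 were called (edgeR's quasi-likelihood test, Benjamini-Hochberg adjusted p under 0.05 over 9130 tested genes), 35 lower and 6 higher. Over all genes tested 29.7% were called, 14.7% lower and 15.0% higher, whereas 50.7% of the subunit genes were lower and 8.70% higher. The all-gene shares here and below were not matched for level. Of the subunit genes with a mean of at least 100 CPM, 69.7% were lower in LPE, and of the others 33.3%. In CPE against T, 31 were called, 25 lower (36.2%) and 6 higher (8.70%), against 32.1% of all genes, 15.3% lower and 16.8% higher. The median log2 fold change of the 69 genes was -0.57 in LPE and -0.43 in CPE, and that of all genes tested was -0.03 and -0.01. The 3 T libraries lay above all 3 LPE libraries for 38 genes (55.1%, against 25.4% of all genes) and above all 3 CPE libraries for 35 (50.7%, against 28.1%). The 3 T libraries lay below all 3 LPE libraries for 6 genes (21.9% of all genes did so) and below all 3 CPE libraries for 8 (26.2% of all genes). The 2 comparisons share the T libraries. In bulk RNA, fewer cells of a type and less RNA per cell cannot be told apart. Leaving out T1 took the lower calls in LPE from 35 to 23, and those over all genes from 1343 to 912. Without T2 or T3 the lower calls in LPE over all genes were 901 and 892. Leaving out T2 took the higher calls in CPE from 6 to 3, and those over all genes from 1532 to 1129. No call changed direction in any of the 15 settings tried.

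**Figure D1:**
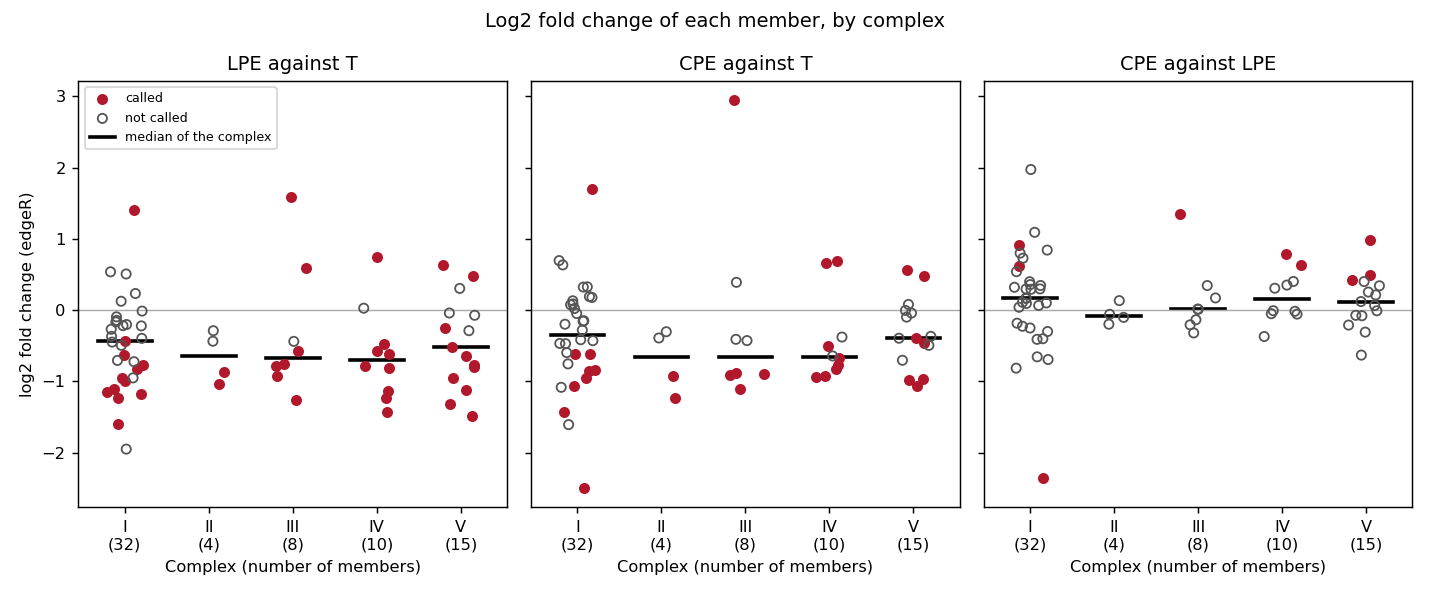
Log2 fold change from edgeR (vertical axis) of each of the 69 genes, by complex (number of genes in brackets), for the 3 pairs of media; filled points passed the adjusted p threshold of 0.05 and bars are complex medians. Against T the medians of all 5 complexes lie below 0 in both LPE and CPE, while single genes such as Uqcrb lie far above.

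The summed level was lower in both serum-free media for each of the 5 complexes. The 69 genes together made up 1.12% to 1.18% of gene reads in T, 0.796% to 0.846% in LPE and 0.905% to 0.936% in CPE, so that the media did not overlap. Complex I summed to 2693 ± 123 CPM (mean ± SD, n = 3 libraries, as throughout) in T, against 1926 ± 50.5 for LPE and 1914 ± 103 for CPE. Complex II summed to 666 ± 16.4, 413 ± 47.1 and 400.3 ± 33.2 CPM, and complex III to 1435 ± 89.1, 1067 ± 71.6 and 1156 ± 36.2 CPM. T was above both serum-free media in every library of these 3 complexes. Complex IV summed to 1861 ± 119, 1176 ± 122 and 1342 ± 82.2 CPM. Complex V summed to 4900.3 ± 131, 3794 ± 142 and 4338 ± 241 CPM, of which Atp5b, the catalytic beta subunit, gave 45.0% to 53.6%. Without Atp5b, complex V summed to 2590.1 ± 174, 1858 ± 104 and 2094 ± 51.2 CPM. The ratio of T to LPE was 1.61 for complex II, 1.58 for complex IV, 1.40 for complex I, 1.35 for complex III and 1.29 for complex V. The ratio of T to CPE ran from 1.13 for complex V to 1.66 for complex II.

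**Figure D2:**
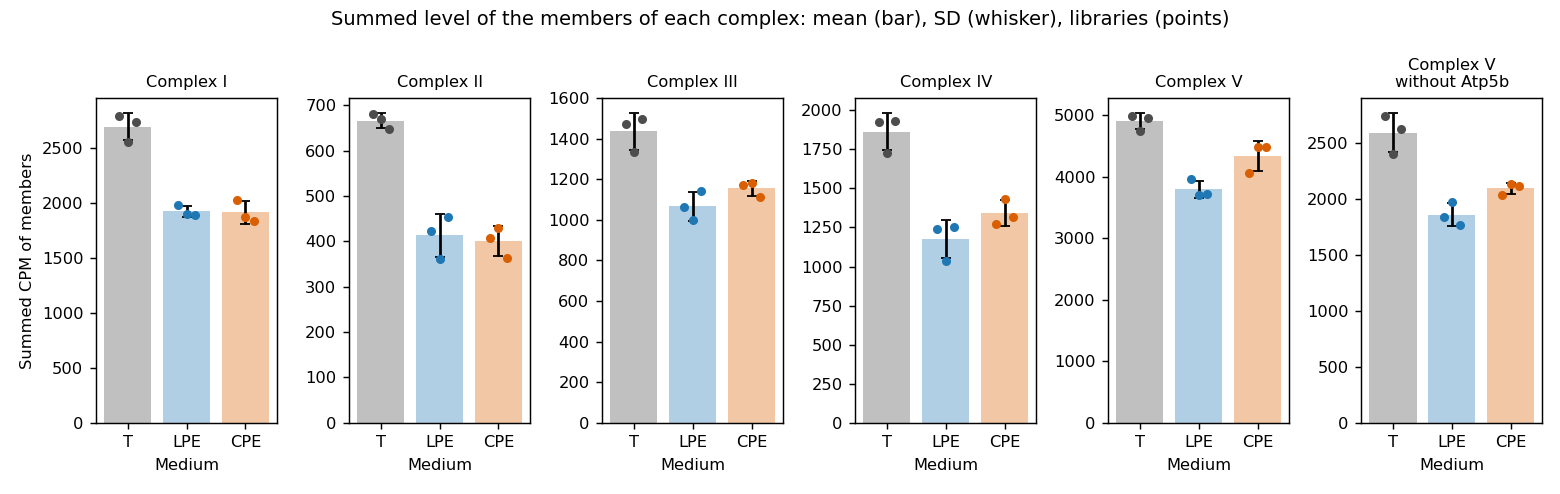
Summed CPM of the genes of each complex (vertical axes from 0) by medium: bars are means, whiskers SD and points the 3 libraries; the last panel leaves out Atp5b. In every panel the 3 T libraries lie above the LPE and CPE libraries.

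The promoters of these genes shared short motifs more often than promoters at large. RefSeq promoter windows (build GRCr8, 250 bases before to 50 after the start) were matched by symbol or synonym for 60 of the 69 genes and searched on both strands for 4 fixed motifs. The NRF1 motif, GCGCA and GCGC with any 1 base between them, was in 14 windows (23.3%, against 4.71% of 27457 promoters), and the ETS motif CCGGAAG in 18 (30.0%, against 9.22%). The YY1 motif AAGATGGCG was in 10 (16.7%, against 1.93%), and AAGGTCA, the site of the oestrogen-related receptors (ERR), in 11 (18.3%, against 4.37%). At least 1 of the 4 was in 38 windows (63.3%, against 18.3%), and no match of one motif overlapped a match of another in these genes. A match is a description of letters and not of binding. The 27457 promoters were not limited to the 9130 genes tested here, so the shares among tested genes at large are not known. Below are 4 windows, chosen because their genes fell in both serum-free media (Uqcrc1 and Cox8a), fell in CPE (Ndufs1) or rose in both (Atp5g3); each reads 5′ to 3′ on the strand of the gene, with motif matches in capitals.
Uqcrc1 (chr8:118467973-118468272, plus strand, NRF1 as its reverse complement, then YY1): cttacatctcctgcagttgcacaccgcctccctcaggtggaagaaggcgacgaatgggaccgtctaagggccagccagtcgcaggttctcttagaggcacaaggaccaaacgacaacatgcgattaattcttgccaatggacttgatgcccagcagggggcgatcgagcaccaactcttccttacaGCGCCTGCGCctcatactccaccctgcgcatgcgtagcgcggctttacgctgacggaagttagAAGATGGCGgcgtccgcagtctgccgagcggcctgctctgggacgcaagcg
Cox8a (chr1:213833574-213833873, minus strand, 2 ETS matches, then ERR, as reverse complements): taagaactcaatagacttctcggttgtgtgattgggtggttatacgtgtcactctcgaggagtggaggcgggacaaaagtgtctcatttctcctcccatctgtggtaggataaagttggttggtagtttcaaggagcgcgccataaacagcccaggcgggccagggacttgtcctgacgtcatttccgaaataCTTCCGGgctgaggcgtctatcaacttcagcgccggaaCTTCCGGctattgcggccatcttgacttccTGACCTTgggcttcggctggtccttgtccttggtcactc
Ndufs1 (chr9:72073556-72073855, minus strand, ETS as its reverse complement): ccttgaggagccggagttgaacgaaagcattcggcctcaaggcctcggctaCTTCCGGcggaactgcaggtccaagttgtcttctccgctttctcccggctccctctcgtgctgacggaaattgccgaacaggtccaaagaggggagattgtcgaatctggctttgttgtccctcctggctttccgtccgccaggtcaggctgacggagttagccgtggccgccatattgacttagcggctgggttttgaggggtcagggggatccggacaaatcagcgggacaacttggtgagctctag
Atp5g3 (chr3:79220615-79220914, minus strand, listed as Atp5mc3, ERR then NRF1, both as reverse complements): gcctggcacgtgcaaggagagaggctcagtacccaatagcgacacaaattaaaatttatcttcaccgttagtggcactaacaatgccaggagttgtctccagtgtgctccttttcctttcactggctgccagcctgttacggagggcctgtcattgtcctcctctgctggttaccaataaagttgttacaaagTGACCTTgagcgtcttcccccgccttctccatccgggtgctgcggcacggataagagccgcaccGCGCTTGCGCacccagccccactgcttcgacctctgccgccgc
Among these 4 windows, NRF1 matches were in Uqcrc1 and Atp5g3, and ERR matches in Cox8a and Atp5g3. Of the other genes with a called rise in a serum-free medium, Atp5j had ETS and YY1 matches. Cox5a, Uqcrfs1 and Ndufb10 had no match to any of the 4 motifs, and Uqcrb and Cox6c had no window. Whether the motifs go with the direction of change was not tested.

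**Figure D3:**
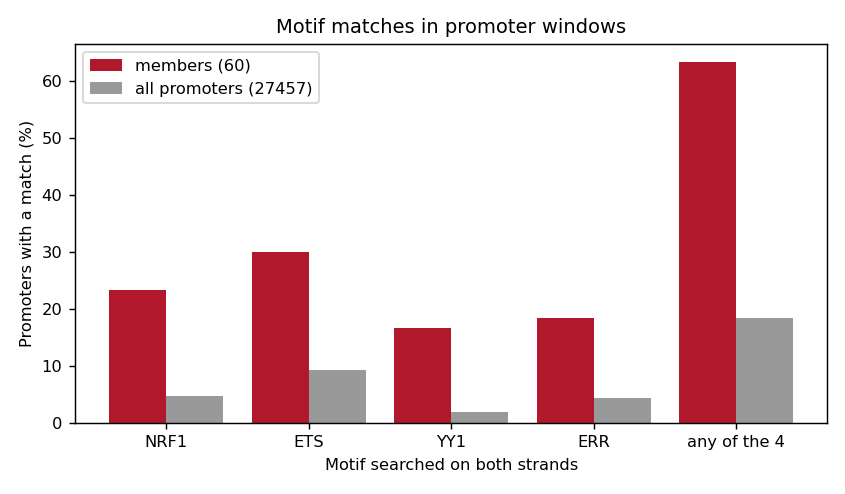
Percent of promoter windows (vertical axis) with a match to each motif, or to any of the 4, for 60 respiratory chain and ATP synthase genes and for all 27457 RefSeq promoters. Each motif was found in a larger share of the 60 windows, from 16.7% for YY1 to 30.0% for ETS.

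The pattern by library is shown next for single genes, and the complexes follow in the order of the chain. Called lower in LPE were 34.4% of complex I, 50% of II, 62.5% of III, 80% of IV and 60% of V. For CPE these shares were 25%, 50%, 50%, 60% and 33.3%. Called higher were 3.12%, 0%, 25%, 10% and 13.3% in LPE and 3.12%, 0%, 12.5%, 20% and 13.3% in CPE. All genes tested gave 14.7% lower and 15.0% higher in LPE, and 15.3% and 16.8% in CPE. The complexes were not matched for level, and calls were more frequent at a higher level (69.7% lower in LPE at 100 CPM or more, 33.3% below). The median log2 fold changes in LPE were -0.44 for complex I, -0.65 for II, -0.67 for III, -0.70 for IV and -0.52 for V.

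**Figure D4:**
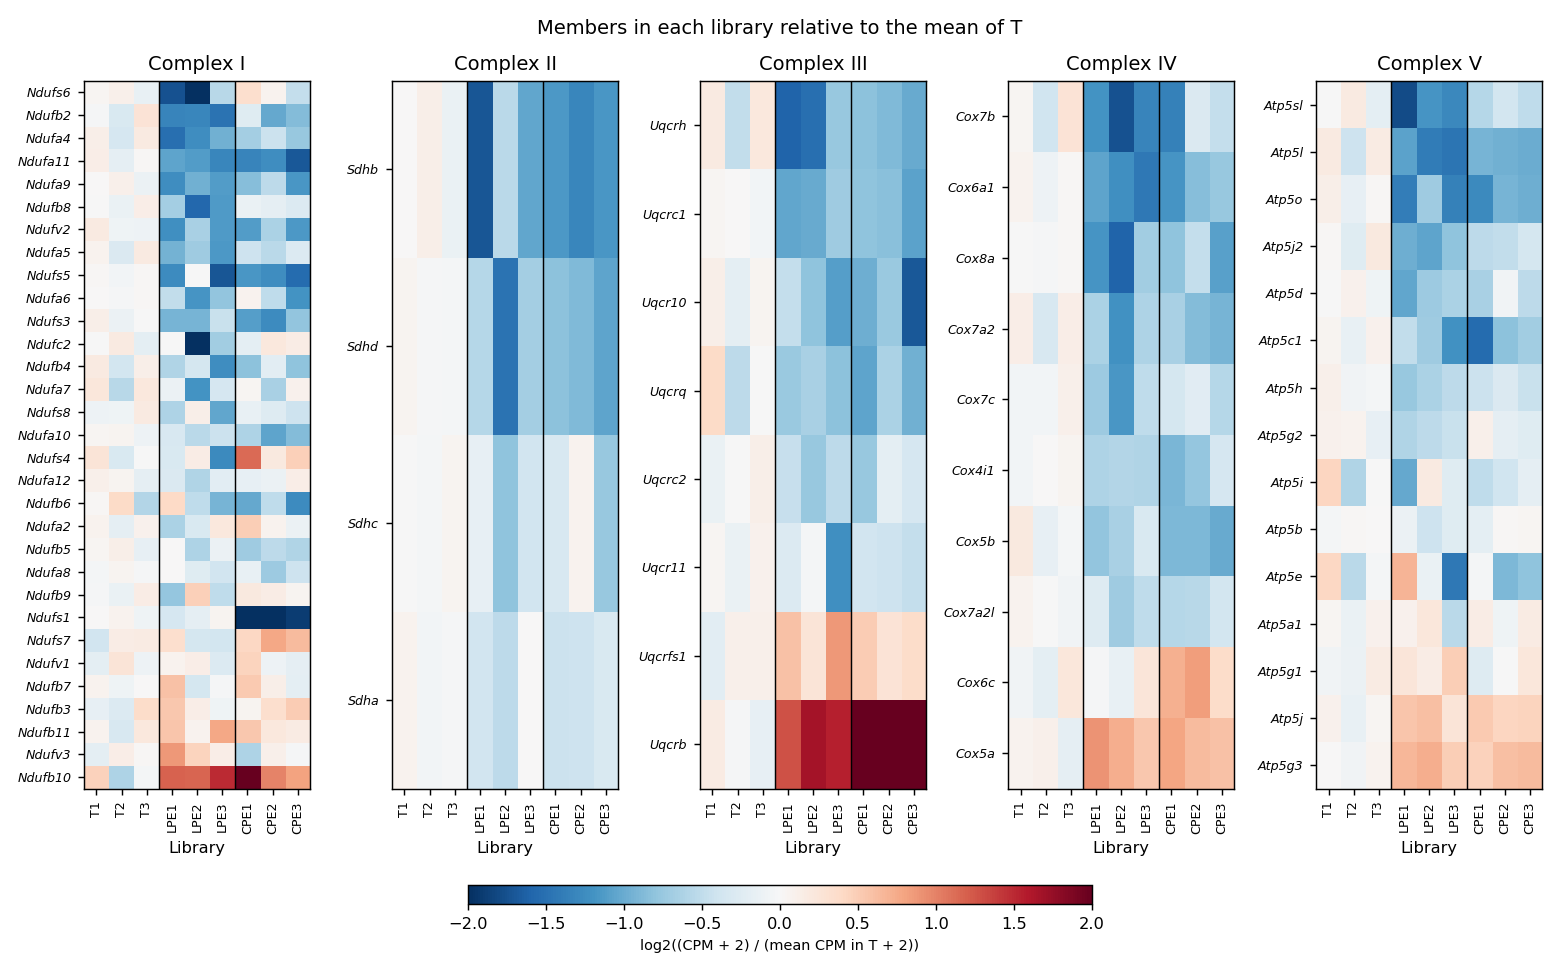
Level of single genes in each library as log2 of (CPM + 2) over (mean CPM in T + 2), by complex, ordered by the fold change in LPE; the colours end at -2 and 2. Most rows are blue in both serum-free media, the bottom rows of complexes III to V are red, and Ndufs1 is dark blue in the 3 CPE libraries only.

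In complex I, which takes electrons from NADH, 11 of 32 genes fell and 1 rose in LPE, and 8 fell and 1 rose in CPE. Ndufs1, the largest iron-sulfur subunit of the NADH-oxidising arm, was the gene with the largest fall. It stood at 269, 283 and 253 CPM in T, while LPE gave 212, 235 and 280.1 and CPE 36.3, 37.0 and 70.2. T and LPE overlapped, and every CPE library was far below both. Ndufs1 fell 5.64-fold in CPE against T (log2FC -2.50 ± 0.22, adjusted p = 6.9e-07; log2FC is the log2 fold change ± SE) and 5.10-fold against LPE (log2FC -2.35 ± 0.22, adjusted p = 2.4e-06). In LPE against T it was not called (log2 fold change -0.14, 95% interval -0.58 to 0.29). Ndufv1, the flavin subunit of the same arm, was not called and differed by 0.09 (adjusted p = 0.81) in CPE against T and -0.01 (adjusted p = 0.97) in LPE. Ndufv2, its partner, was at 169, 140.1 and 139 CPM in T, while LPE gave 63.0, 94.2 and 67.0 and CPE 67.5, 96.1 and 66.4. It fell in both media, by 2.00-fold in LPE (log2FC -0.997 ± 0.21, adjusted p = 0.0021) and 1.94-fold in CPE (adjusted p = 0.0025).

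Ndufs3, a core subunit of the arm that leads to the quinone site, was at 135, 114 and 123 CPM in T, while LPE gave 63.9, 64.0 and 91.0 and CPE 56.6, 50.6 and 70.9. Its level was lower in every serum-free library, 2.10-fold in CPE (log2FC -1.07 ± 0.21, adjusted p = 0.0011) and 1.70-fold in LPE (adjusted p = 0.011). The iron-sulfur core subunits Ndufs7 and Ndufs8 were not called in any comparison, and Ndufs7 was at 31.6, 46.9 and 47.4 CPM in T, while LPE gave 53.4, 32.6 and 32.1 and CPE 56.3, 72.9 and 66.4. The LPE call of Ndufs3 was lost on leaving out T1 (adjusted p = 0.06).

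Among the accessory subunits of complex I, Ndufa11, a membrane-arm subunit, was lower in every serum-free library. It stood at 177, 143 and 165 CPM in T, while LPE gave 76.7, 73.4 and 64.1 and CPE 63.7, 67.2 and 48.6. The level was 2.27-fold lower in LPE (log2FC -1.18 ± 0.19, adjusted p = 0.0002) and 2.70-fold lower in CPE (log2FC -1.43 ± 0.19, adjusted p = 3e-05). Ndufb8, another membrane-arm subunit, was at 112, 103 and 123 CPM in T, while LPE gave 69.7, 36.4 and 50.0 and CPE 102, 99.0 and 93.1. It fell in LPE (log2FC -1.11 ± 0.22, adjusted p = 0.0014) and was higher in CPE than in LPE (log2FC 0.92 ± 0.22, adjusted p = 0.0086), so that CPE lay just under T. Ndufa5 also fell in LPE (log2FC -0.96 ± 0.22, adjusted p = 0.004). Ndufa9 fell in LPE (log2FC -1.15 ± 0.28, adjusted p = 0.0049) and in CPE (log2FC -0.85 ± 0.27, adjusted p = 0.025). Ndufa10 fell in CPE from 273 ± 16.2 to 152 ± 24.1 CPM (log2FC -0.84 ± 0.14, adjusted p = 0.00032) and also in LPE (log2FC -0.43 ± 0.14, adjusted p = 0.031). Ndufa6 fell in LPE (log2FC -0.83 ± 0.30, adjusted p = 0.046) and Ndufb5 in CPE (log2FC -0.62 ± 0.22, adjusted p = 0.04). The largest called fall in LPE was that of Ndufb2, at 20.2, 16.2 and 25.1 CPM in T, while LPE gave 7.03, 7.15 and 6.09 and CPE 17.1, 9.08 and 10.3. Few reads stand behind each of these values (log2FC -1.60 ± 0.53, adjusted p = 0.032). Ndufs6 had a lower fitted value in LPE without a call (-1.95 (adjusted p = 0.16)). The only called rise was that of Ndufb10, from 18.0, 7.53 and 12.1 CPM in T to 31.0, 30.5 and 38.8 in LPE (log2FC 1.41 ± 0.46, adjusted p = 0.029) and 72.5, 26.8 and 23.5 in CPE (log2FC 1.70 ± 0.46, adjusted p = 0.0097). Of the reads at Ndufb10, 12.8% lay on the other strand.

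Several of these accessory calls were lost when 1 library was left out. Ndufb10 lost its call in LPE on leaving out T2, T3 or LPE3 (adjusted p = 0.077 to 0.13). In CPE it lost it on leaving out T2 or CPE1 (adjusted p = 0.057 to 0.089), with a log2 fold change of 0.995 without CPE1. Ndufb2 lost its call in LPE on leaving out T1, T2, T3 or LPE3 (adjusted p = 0.061 to 0.17) and with no filter on low counts and with counts thinned to the lowest library total (adjusted p = 0.057 to 0.076). Ndufa10 lost it in LPE on leaving out T1, T2, T3, LPE2 or LPE3 (adjusted p = 0.061 to 0.11). For Ndufa6 it was lost on leaving out T1, T2, T3, LPE2 or LPE3 (adjusted p = 0.093 to 0.13) and with RLE normalization and with counts thinned to the lowest library total (adjusted p = 0.051 to 0.12). In CPE the call was lost for Ndufa9 on leaving out T1, T2, T3, CPE1 or CPE3 (adjusted p = 0.051 to 0.1) and with counts thinned to the lowest library total (adjusted p = 0.11). For Ndufb5 it was lost on leaving out T1, T2, T3, CPE1, CPE2 or CPE3 (adjusted p = 0.065 to 0.15) and with counts thinned to the lowest library total (adjusted p = 0.081). The calls of Ndufa11, Ndufv2 and Ndufb8 in LPE and of Ndufs1, Ndufs3, Ndufa10, Ndufa11 and Ndufv2 in CPE held in all 15 settings.

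The symbol rule places Ndufa4 in complex I, although the protein is known as a subunit of complex IV. Ndufa4 was at 226, 165 and 238 CPM in T, while LPE gave 72.2, 87.3 and 107 and CPE 130.3, 155 and 123. The media did not overlap: T was highest, CPE intermediate and LPE lowest. Ndufa4 fell in LPE (log2FC -1.24 ± 0.19, adjusted p = 0.00014) and in CPE (log2FC -0.62 ± 0.18, adjusted p = 0.017), and CPE was above LPE (log2FC 0.62 ± 0.19, adjusted p = 0.03). The CPE call against T was lost on leaving out T1, T3, CPE1 or CPE3 (adjusted p = 0.051 to 0.1). The call against LPE was lost on leaving out LPE1, LPE2, CPE1 or CPE2 (adjusted p = 0.052 to 0.12) and with only the 2 media compared in the fit (adjusted p = 0.079).

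Complex II, succinate dehydrogenase, fell in 2 of its 4 genes in both serum-free media. Sdhb, the iron-sulfur subunit, was at 172, 186 and 155 CPM in T, while LPE gave 50.8, 118 and 82.4 and CPE 76.1, 67.9 and 75.1. The LPE libraries varied most, yet all 6 serum-free libraries were below T. Sdhb fell 2.04-fold in LPE (log2FC -1.03 ± 0.24, adjusted p = 0.0038) and 2.34-fold in CPE (log2FC -1.23 ± 0.24, adjusted p = 0.00097). Sdhd, a membrane anchor, was at 247, 235 and 232 CPM in T, while LPE gave 159.8, 83.9 and 149 and CPE 135, 128 and 114. It also fell in LPE (log2FC -0.87 ± 0.20, adjusted p = 0.0035) and CPE (log2FC -0.92 ± 0.20, adjusted p = 0.0019). The flavin subunit Sdha was not called (-0.29 (adjusted p = 0.26) in LPE and -0.39 (adjusted p = 0.11) in CPE), nor was the other anchor, Sdhc (-0.44 (adjusted p = 0.15) and -0.30 (adjusted p = 0.31)). All 4 Sdhb and Sdhd calls held in all 15 settings.

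Complex III, the cytochrome bc1 complex, held the largest rise beside several falls: 5 of 8 genes fell and 2 rose in LPE, and 4 fell and 1 rose in CPE. Uqcrb, a small subunit near the quinone site, was at 24.0, 20.8 and 18.6 CPM in T, while LPE gave 53.7, 71.5 and 66.0 and CPE 189, 134 and 164. The 3 media formed 3 separate steps, with T lowest and CPE highest. Uqcrb rose 3.02-fold in LPE (log2FC 1.59 ± 0.23, adjusted p = 7.6e-05) and 7.69-fold in CPE (log2FC 2.94 ± 0.23, adjusted p = 1.9e-07), and CPE was 2.55-fold above LPE (log2FC 1.35 ± 0.20, adjusted p = 0.00024). RefSeq lists 2 named pseudogene copies of Uqcrb, one of which carries Uqcrb as a synonym, so which copy these reads came from is uncertain. Uqcrc1, a core subunit, was at 392, 386 and 368 CPM in T, while LPE gave 186, 189 and 232 and CPE 218, 213 and 182. Both serum-free media were at about the same level, below every T library, with a fall of 1.89-fold in LPE (log2FC -0.92 ± 0.13, adjusted p = 7.5e-05) and 1.87-fold in CPE (log2FC -0.90 ± 0.13, adjusted p = 7e-05). Its core partner Uqcrc2 fell in LPE (log2FC -0.58 ± 0.15, adjusted p = 0.0093) and missed the threshold in CPE (-0.41 (adjusted p = 0.051)). Uqcrh, the hinge protein next to cytochrome c1, was at 196, 122 and 200.4 CPM in T, while LPE gave 55.6, 59.4 and 102 and CPE 97.3, 92.7 and 85.4. It was lower in every serum-free library, in LPE (log2FC -1.26 ± 0.24, adjusted p = 0.001) and in CPE (log2FC -0.92 ± 0.24, adjusted p = 0.0078).

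Of the remaining complex III genes, Uqcrfs1, the Rieske iron-sulfur protein, went the other way from the core subunits. It was at 168, 208 and 208 CPM in T, while LPE gave 294, 233 and 356 and CPE 277, 236 and 253. It was above T in every serum-free library and passed the threshold in LPE (log2FC 0.60 ± 0.16, adjusted p = 0.0092) but not in CPE (0.39 (adjusted p = 0.071)). The small subunits Uqcr10 and Uqcrq fell in both media. Uqcr10 fell by 2.16-fold in CPE (log2FC -1.11 ± 0.27, adjusted p = 0.0053) and 1.73-fold in LPE (adjusted p = 0.038). Uqcrq fell by 1.85-fold in CPE (log2FC -0.89 ± 0.22, adjusted p = 0.0054) and 1.68-fold in LPE (adjusted p = 0.016). Uqcr11 was not called in any comparison. In LPE the call was lost for Uqcrfs1 on leaving out T1 or LPE3 (adjusted p = 0.058 to 0.063). For Uqcrc2 it was lost on leaving out T3 (adjusted p = 0.061). For Uqcr10 it was lost on leaving out T1, T2, T3, LPE2 or LPE3 (adjusted p = 0.064 to 0.13). For Uqcrq it was lost on leaving out T1 or T3 (adjusted p = 0.053 to 0.14). In CPE it was lost for Uqcrq on leaving out T1 (adjusted p = 0.058).

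**Figure D5:**
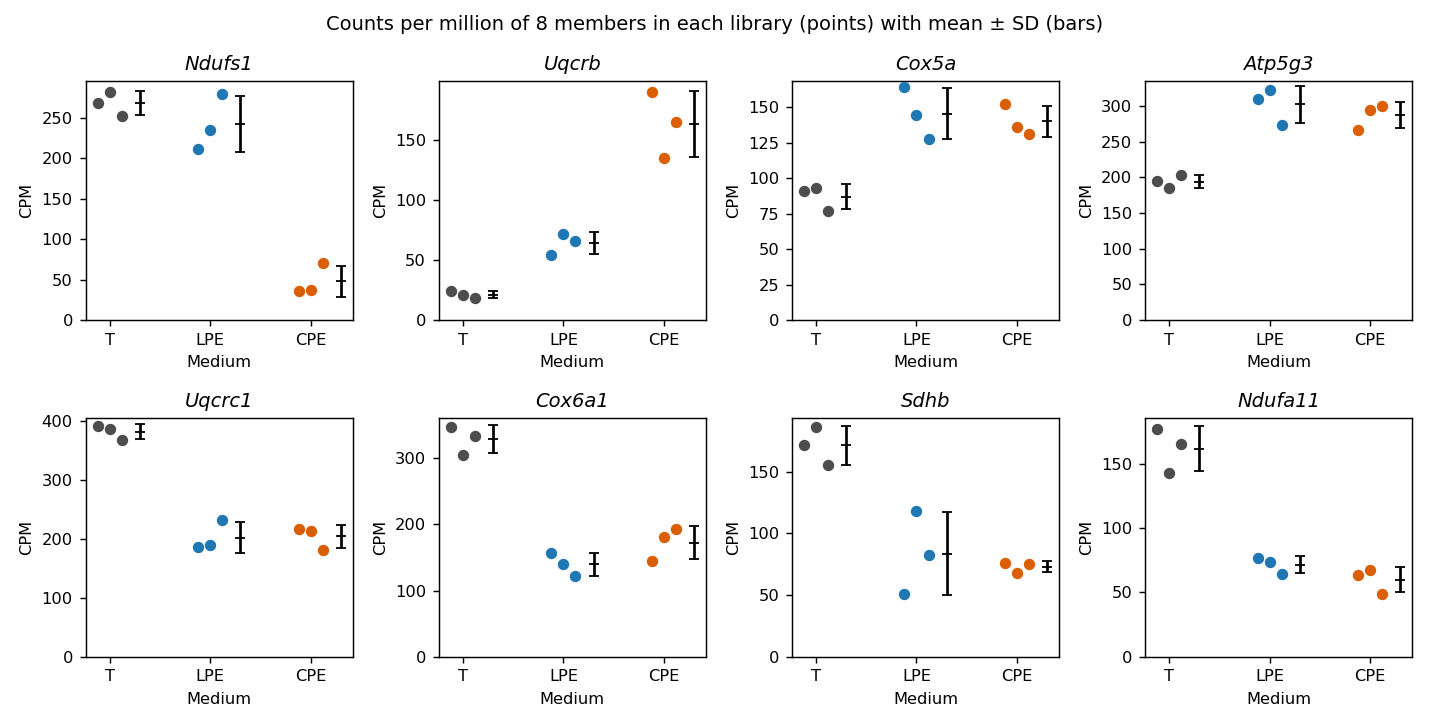
CPM of 8 genes in each library (points; vertical axes from 0) with the mean and SD of each medium (bars), chosen to show a fall in CPE only, rises and falls. Ndufs1 is low in CPE only, Uqcrb, Cox5a and Atp5g3 are above T in all 6 serum-free libraries, and Uqcrc1, Cox6a1, Sdhb and Ndufa11 are below T in all 6.

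Complex IV, cytochrome c oxidase, fell in the largest share of genes: 8 of 10 fell and 1 rose in LPE, and 6 fell and 2 rose in CPE. Cox6a1, the widely expressed isoform of subunit VIa, was at 346, 305 and 333 CPM in T, while LPE gave 157, 139.9 and 121 and CPE 144, 181 and 192. Every serum-free library was well below T, with a fall of 2.36-fold in LPE (log2FC -1.24 ± 0.15, adjusted p = 1.7e-05) and 1.90-fold in CPE (log2FC -0.93 ± 0.15, adjusted p = 0.00017). Cox8a, a small membrane subunit, was at 181, 179 and 185 CPM in T, while LPE gave 79.0, 58.7 and 111 and CPE 103, 129 and 84.7. It was 2.19-fold lower in LPE (log2FC -1.13 ± 0.22, adjusted p = 0.0011) and 1.71-fold lower in CPE (log2FC -0.78 ± 0.22, adjusted p = 0.012). Cox7b was at 192, 142 and 226 CPM in T, while LPE gave 80.5, 54.4 and 73.4 and CPE 72.0, 152 and 134. All LPE libraries were below T, but 1 of 3 CPE libraries overlapped T, and the gene fell in LPE (log2FC -1.43 ± 0.26, adjusted p = 0.00065) without a call in CPE (-0.64 (adjusted p = 0.063)). Cox7c likewise fell in LPE (log2FC -0.78 ± 0.17, adjusted p = 0.0025), with -0.38 (adjusted p = 0.098) in CPE. The CPE call of Cox8a was lost on leaving out CPE3 (adjusted p = 0.054).

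The matrix-side subunits Cox5a and Cox5b, which enter the complex at different places, moved in opposite directions. Cox5a was at 91.1, 93.2 and 76.7 CPM in T, while LPE gave 164, 145 and 128 and CPE 152, 136 and 131. Every serum-free library was above every T library, and Cox5a rose 1.68-fold in LPE (log2FC 0.74 ± 0.17, adjusted p = 0.003) and 1.61-fold in CPE (log2FC 0.69 ± 0.16, adjusted p = 0.0045). Cox5b was at 241, 187 and 205 CPM in T, while LPE gave 122, 134 and 169.9 and CPE 113, 113 and 104. Here every serum-free library was below T, 1.92-fold in CPE (log2FC -0.94 ± 0.16, adjusted p = 0.00037) and 1.49-fold in LPE (log2FC -0.57 ± 0.16, adjusted p = 0.014). Cox4i1, the regulatory subunit that contacts Cox5a, fell by 1.53-fold in LPE (log2FC -0.62 ± 0.19, adjusted p = 0.021) and 1.59-fold in CPE (log2FC -0.67 ± 0.19, adjusted p = 0.012). Cox7a2 fell by 1.76-fold and 1.77-fold (adjusted p = 0.0092 and 0.0078). Cox7a2l, a related protein that joins complexes III and IV into supercomplexes, fell by 1.40-fold and 1.41-fold (adjusted p = 0.016 and 0.012). Cox6c rose in CPE, at 177, 195 and 139.8 CPM against 102, 94.4 and 127 in T (log2FC 0.66 ± 0.18, adjusted p = 0.011). In LPE it overlapped T and was not called (0.03 (adjusted p = 0.94)).

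Some complex IV calls depended on single libraries. In LPE the call was lost for Cox5b on leaving out T1 or LPE1 (adjusted p = 0.059 to 0.091) and with counts thinned to the lowest library total (adjusted p = 0.056). For Cox4i1 it was lost on leaving out T1, T2 or T3 (adjusted p = 0.054 to 0.093). For Cox7a2 it was lost on leaving out T1 or T3 (adjusted p = 0.052 to 0.06). For Cox7a2l it was lost on leaving out T1, T2 or LPE2 (adjusted p = 0.053 to 0.072). In CPE it was lost for Cox4i1 on leaving out T3 (adjusted p = 0.064). For Cox7a2 it was lost on leaving out T3 (adjusted p = 0.052). For Cox7a2l it was lost on leaving out T1 (adjusted p = 0.059). For Cox6c it was lost on leaving out T1, T2 or CPE2 (adjusted p = 0.057 to 0.066). The calls of Cox5a and Cox6a1 in both media, and of Cox7b, Cox7c and Cox8a in LPE, held in all 15 settings.

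In complex V, 9 of 15 genes fell and 2 rose in LPE, and 5 fell and 2 rose in CPE. Atp5a1, the alpha subunit, was at 163, 144 and 167 CPM in T, while LPE gave 168, 185 and 108 and CPE 176, 148 and 178. The media overlapped and no call was made (95% interval of the log2 fold change -0.43 to 0.35 in LPE and -0.31 to 0.47 in CPE). Atp5b, the beta subunit, was at 2248, 2349 and 2334 CPM in T, while LPE gave 2119.5, 1732 and 1958 and CPE 2024, 2345 and 2365. Its fall in LPE was 1.19-fold (log2FC -0.25 ± 0.09, adjusted p = 0.044), and the CPE libraries lay on both sides of the range of T (-0.04 (adjusted p = 0.77)). The central stalk gene Atp5c1 (gamma) was at 267, 232 and 275 CPM in T, while LPE gave 183, 158 and 111 and CPE 87.0, 145 and 158. It was lower in every serum-free library, in LPE (log2FC -0.78 ± 0.21, adjusted p = 0.012) and in CPE (log2FC -0.99 ± 0.21, adjusted p = 0.0023). Atp5d (delta) fell in LPE (log2FC -0.80 ± 0.17, adjusted p = 0.0025), with -0.39 (adjusted p = 0.091) in CPE, and Atp5e (epsilon) had at most 13.4 CPM in any library and no call. The LPE call of Atp5b was lost on leaving out T1, T2, T3, LPE2 or LPE3 (adjusted p = 0.075 to 0.2) and with no filter on low counts, with only the 2 media compared in the fit and with counts thinned to the lowest library total (adjusted p = 0.067 to 0.077). That of Atp5c1 was lost on leaving out LPE3 (adjusted p = 0.062).

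The c-ring, the rotor in the membrane, is encoded by 3 genes that give the same mature protein with different import sequences, and the 3 genes moved differently. Atp5g3 was at 194, 185 and 203 CPM in T, while LPE gave 309.7, 323 and 273 and CPE 267, 294 and 300.2. All 6 serum-free libraries were above T, and Atp5g3 rose 1.56-fold in LPE (log2FC 0.64 ± 0.12, adjusted p = 0.00093) and 1.48-fold in CPE (log2FC 0.57 ± 0.12, adjusted p = 0.0021). Atp5g2 was at 485, 478 and 406 CPM in T, while LPE gave 301, 318 and 334 and CPE 491, 401 and 387. It fell in LPE (log2FC -0.52 ± 0.12, adjusted p = 0.0041) and overlapped T in CPE (-0.10 (adjusted p = 0.59)). Atp5g1 was not called in any comparison and ranged from 61.6 to 105 CPM. The 3 genes summed to 724 ± 29.1 CPM in T, against 711 ± 11.8 for LPE and 787 ± 27.9 for CPE. The sums of LPE lay within the range of T and those of CPE above it. Atp5g3 gave 26.8% ± 2.16 of the sum in T, 42.5% ± 3.52 in LPE and 36.5% ± 3.48 in CPE. The share of Atp5g3 in the sum did not overlap between T and either serum-free medium. Gene lengths were not used here, and the shares are of reads.

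The peripheral stalk and the membrane accessory subunits of complex V mostly fell. Atp5l, subunit g, was at 305, 203 and 301 CPM in T, while LPE gave 127, 101 and 97.1 and CPE 139.8, 137 and 135. It was lower in every serum-free library, 2.49-fold in LPE (log2FC -1.31 ± 0.17, adjusted p = 3.8e-05) and 1.96-fold in CPE (log2FC -0.97 ± 0.17, adjusted p = 0.00041). Atp5o, the subunit that ties the stalk to the head, was at 262, 216 and 247 CPM in T, while LPE gave 91.7, 147 and 92.9 and CPE 99.1, 126 and 121. It was 2.18-fold lower in LPE (log2FC -1.13 ± 0.19, adjusted p = 0.00033) and 2.09-fold lower in CPE (log2FC -1.06 ± 0.19, adjusted p = 0.00046). Atp5j2, subunit f, fell to 106, 100.1 and 119 CPM in LPE from 213, 177 and 240.4 in T (log2FC -0.96 ± 0.15, adjusted p = 0.00023) and to 145, 149.7 and 164 in CPE (log2FC -0.46 ± 0.15, adjusted p = 0.029). Atp5h, subunit d of the stalk, fell 1.56-fold in LPE (log2FC -0.64 ± 0.12, adjusted p = 0.0011) and 1.31-fold in CPE (log2FC -0.39 ± 0.12, adjusted p = 0.024). Atp5j, the stalk's coupling factor 6, was the exception, at 88.4, 74.7 and 85.6 CPM in T, while LPE gave 122, 127 and 99.0 and CPE 120.3, 112 and 114. It was above T in every serum-free library (log2FC 0.49 ± 0.17, adjusted p = 0.043 in LPE and log2FC 0.48 ± 0.17, adjusted p = 0.044 in CPE). Atp5i, subunit e, was not called. Atp5sl matches the symbol rule but encodes a factor known for the assembly of complex I, and it fell from 55.1, 63.1 and 48.4 CPM in T to 14.7, 23.3 and 21.5 in LPE (log2FC -1.48 ± 0.28, adjusted p = 0.00098), with -0.49 (adjusted p = 0.19) in CPE. The Atp5j call was lost in LPE on leaving out T1, T2, T3, LPE1 or LPE2 (adjusted p = 0.083 to 0.16) and with no filter on low counts (adjusted p = 0.064). In CPE it was lost on leaving out T1, T2, T3, CPE1, CPE2 or CPE3 (adjusted p = 0.076 to 0.16) and with upper-quartile normalization, with no filter on low counts and with counts thinned to the lowest library total (adjusted p = 0.051 to 0.12). In CPE the call was also lost for Atp5h on leaving out T1, T3, CPE1 or CPE3 (adjusted p = 0.056 to 0.12). For Atp5j2 it was lost on leaving out T1, T3, CPE1 or CPE2 (adjusted p = 0.073 to 0.2).

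CPE and LPE, which differ in Chir99021 and Lif, differed in few of these genes. In CPE against LPE, 8 of 69 were higher (11.6%) and 1 was lower (1.45%), against 17.8% of all genes called, 9.56% higher and 8.23% lower. The median log2 fold change was 0.11, and 0.01 over all genes. The higher genes were Uqcrb, Ndufb8, Ndufa4, Cox7b, Cox6c, Atp5g2, Atp5j2 and Atp5sl, and the lower gene was Ndufs1. Of these, Ndufb8, Ndufa4, Cox7b, Atp5g2, Atp5j2 and Atp5sl had fallen in LPE against T, a comparison that shares the LPE libraries. Cox6c stood at 105, 96.7 and 128 CPM in LPE and 177, 195 and 139.8 in CPE (log2FC 0.63 ± 0.18, adjusted p = 0.022). Atp5sl rose from 19.8 ± 4.53 to 39.3 ± 2.87 CPM (log2FC 0.99 ± 0.28, adjusted p = 0.022), and Cox7b from 69.4 ± 13.5 to 119.6 ± 42.2 (log2FC 0.79 ± 0.26, adjusted p = 0.044). Atp5j2 rose from 108 ± 9.83 to 153 ± 9.66 (log2FC 0.50 ± 0.15, adjusted p = 0.034) and Atp5g2 from 317 ± 16.3 to 426 ± 56.7 (log2FC 0.42 ± 0.12, adjusted p = 0.022). Only the calls of Uqcrb, Ndufb8 and Ndufs1 held in all 15 settings. The call was lost for Cox6c on leaving out LPE1, LPE2, CPE1 or CPE2 (adjusted p = 0.057 to 0.1). For Atp5sl it was lost on leaving out LPE1 or CPE2 (adjusted p = 0.062 to 0.066) and with only the 2 media compared in the fit (adjusted p = 0.11). For Cox7b it was lost on leaving out LPE2, LPE3, CPE2 or CPE3 (adjusted p = 0.083 to 0.2) and with only the 2 media compared in the fit, with reads on either strand and with counts thinned to the lowest library total (adjusted p = 0.079 to 0.28). For Atp5j2 it was lost on leaving out LPE1, LPE2, CPE2 or CPE3 (adjusted p = 0.067 to 0.097) and with only the 2 media compared in the fit and with counts thinned to the lowest library total (adjusted p = 0.096 to 0.17). For Atp5g2 it was lost on leaving out LPE1 or CPE1 (adjusted p = 0.07 to 0.095) and with only the 2 media compared in the fit and with counts thinned to the lowest library total (adjusted p = 0.056 to 0.075). The number of calls fell from 9 to 4 without CPE2, of which 3 were higher, and the higher calls fell from 8 to 5 without LPE1 or CPE1. The lower calls numbered 2 without LPE2 or CPE1.

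Genes with many near-identical copies can lose reads to places that are not counted. RefSeq names at least 1 pseudogene copy for 34 of the 69 genes, 79 copies in all and up to 8 for 1 gene (Atp5l). Among these 34, 19 were lower and 3 higher in LPE (median log2 fold change -0.64), and 13 lower and 4 higher in CPE (-0.44). Among the 35 without a named copy, 16 were lower and 3 higher in LPE (-0.44), and 12 lower and 2 higher in CPE (-0.43). The genes without a named copy include Ndufs1, Ndufa11, Uqcrc1, Sdhb, Cox5a, Cox8a and Atp5g3, whereas Cox6a1, Uqcrb, Atp5l and Atp5o have named copies. Only pseudogenes named after the gene symbol were counted, so copies under other names may exist. Calls were also more frequent among genes at a higher level: of 33 genes with a mean of at least 100 CPM, 23 were lower and 4 higher in LPE, and of the 36 others 12 were lower and 2 higher.

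The rule left out 11 matching symbols. Ndufa1 had 0 counts in every library, which allows up to 3 counts a library, or 0.679 to 1.77 CPM, and counting error only is covered. For Ndufa1 RefSeq names 1 pseudogene copy, and for Atp5f1, described next, 3 copies. Any reads lost to such copies are outside this limit, so low counts of these genes need not mean little RNA. Just outside the rule, Atp5f1, the stalk subunit b, had 10 counts or more in 2 libraries (22 in LPE1 and 22 in CPE2), and Atp5s had 20 in LPE1 and in CPE1. Just inside it, Ndufs6 had 10 counts or more in 7 libraries, from 1 count in LPE2 to 37 in CPE2, and Atp5e in 7, from 5 in LPE3 to 42 in LPE1. The others left out were Ndufa4l2, Ndufa10l1, Cox4i2, Cox6a2, Cox6b2, Cox6c-ps1, Cox8b and Cox8c, several of them tissue-restricted isoforms.

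Genes that work beside the chain were read from 14 fixed lists, 122 of whose 134 genes found in the tables were tested. Of 10 tested parts of the chain outside the symbol rule, 5 fell (50.0%) and 1 rose (10.0%) in LPE. Against T, 3 fell (30.0%) and 1 rose (10.0%) in CPE. All genes tested gave 14.7% lower and 15.0% higher in LPE, and 15.3% and 16.8% in CPE. Cycs, cytochrome c, which carries electrons from complex III to IV, was at 316, 282 and 333 CPM in T, while LPE gave 131, 144 and 145 and CPE 178, 181 and 197. It was lower in all 6 serum-free libraries (log2FC -1.15 ± 0.13, adjusted p = 8.2e-06 in LPE and log2FC -0.75 ± 0.13, adjusted p = 0.00032 in CPE), with no overlap. Cyc1, the cytochrome c1 subunit of complex III, was not called (-0.17 (adjusted p = 0.39) and 0.19 (adjusted p = 0.32)). Of the 37 assembly factors of complexes I to V, 7 fell and 4 rose in LPE, and 5 fell and 2 rose in CPE, with medians of -0.18 and -0.34. That is 18.9% lower and 10.8% higher in LPE, and 13.5% lower and 5.41% higher in CPE, against 14.7%, 15.0%, 15.3% and 16.8% of all genes tested. Among them Cox15, which makes the heme a of complex IV, was at 13.1, 11.6 and 18.1 CPM in T, while LPE gave 70.0, 32.3 and 77.2 and CPE 63.1, 69.5 and 90.2. It rose 4.16-fold in LPE (log2FC 2.06 ± 0.35, adjusted p = 0.00035) and 5.15-fold in CPE (log2FC 2.37 ± 0.35, adjusted p = 8.8e-05), opposite to most complex IV subunits. Coa3, a complex IV assembly factor, fell in LPE from 48.9 ± 6.68 to 15.4 ± 6.64 CPM (log2FC -1.67 ± 0.37, adjusted p = 0.0032).

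Of the 7 tested genes for adenine nucleotide, phosphate and outer membrane transport, 4 rose (57.1%) and 2 fell (28.6%) in LPE. Against T, 6 rose (85.7%) and 1 fell (14.3%) in CPE, and 5 (71.4%) rose from LPE to CPE. All genes tested gave 15.0% higher and 14.7% lower in LPE, and 16.8% and 15.3% in CPE. From LPE to CPE 9.56% of all genes were higher. In LPE the genes that rose were Slc25a3, the outer membrane channels Vdac1 and Vdac2 and the uncoupling protein Ucp2, while the ADP/ATP exchangers Slc25a4 and Slc25a5 fell. Slc25a3, which imports phosphate for ATP synthesis, was at 224, 262 and 247 CPM in T, while LPE gave 755, 568 and 747 and CPE 1141, 1014 and 1074. The media formed 3 separate steps, with a rise of 2.82-fold in LPE (log2FC 1.50 ± 0.12, adjusted p = 3.4e-07) and 4.40-fold in CPE (log2FC 2.14 ± 0.12, adjusted p = 9e-09). The ADP/ATP exchanger Slc25a5 was at 864, 822 and 910.0 CPM in T, while LPE gave 375, 384 and 316 and CPE 692, 738 and 705. This was a fall of 2.41-fold in LPE (log2FC -1.27 ± 0.10, adjusted p = 3.3e-07). Its relative Slc25a4 was at 811, 919.6 and 877 CPM in T, while LPE gave 688, 629 and 644 and CPE 1176, 1154 and 1304. It was lower than T in LPE (log2FC -0.41 ± 0.09, adjusted p = 0.0033) and higher in CPE (log2FC 0.48 ± 0.09, adjusted p = 0.00094). CPE was above LPE for both exchangers, 1.99-fold for Slc25a5 (adjusted p = 7e-06) and 1.85-fold for Slc25a4 (adjusted p = 7.4e-06).

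The citric acid cycle, which supplies the NADH and succinate that complexes I and II oxidise, gave 4 lower and 1 higher call among 15 tested genes in LPE, and 4 lower and 3 higher in CPE. Cs, citrate synthase, was at 91.7, 74.7 and 84.2 CPM in T, while LPE gave 444, 439 and 323 and CPE 615, 472 and 454. It was several times higher in all 6 serum-free libraries, 4.81-fold in LPE (log2FC 2.27 ± 0.16, adjusted p = 1.4e-07) and 6.14-fold in CPE (log2FC 2.62 ± 0.16, adjusted p = 2e-08). Suclg1, the alpha subunit of succinyl-CoA ligase, fell from 291 ± 11.5 CPM in T to 131 ± 8.13 in LPE (log2FC -1.15 ± 0.12, adjusted p = 6e-06) and 181 ± 3.67 in CPE (log2FC -0.68 ± 0.12, adjusted p = 0.00051). Among 13 tested genes of cristae and fusion, 6 fell in LPE (46.2%) and 4 in CPE (30.8%), and none rose by edgeR's test. Stoml2, a scaffold of the inner membrane, was at 298, 306 and 318 CPM in T, while LPE gave 116, 116 and 121 and CPE 227, 249.8 and 319.5. It fell in LPE (log2FC -1.39 ± 0.14, adjusted p = 3.3e-06) and was higher in CPE than in LPE (log2FC 1.17 ± 0.14, adjusted p = 2.9e-05), with no call in CPE against T (adjusted p = 0.27). Phb2, a prohibitin, fell in LPE (log2FC -0.81 ± 0.10, adjusted p = 1.8e-05) and CPE (log2FC -1.07 ± 0.10, adjusted p = 9.8e-07). Of 11 tested genes of pyruvate dehydrogenase and its kinases, 1 fell and 2 rose in LPE and 2 fell and 1 rose in CPE, shares of 9.09% to 18.2% that are near those of all genes (14.7% lower and 15.0% higher in LPE, 15.3% and 16.8% in CPE). Of 11 for coenzyme Q synthesis, 1 fell in CPE (9.09%), and of 10 for mitochondrial DNA upkeep, 1 fell in LPE (10.0%).

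Among 8 tested regulators of mitochondrial genes, 3 fell and 1 rose in LPE, and 2 fell and 1 rose in CPE. The shares over all tested genes were 14.7% lower and 15.0% higher in LPE, and 15.3% and 16.8% in CPE. A list of 8 genes is short for a comparison with these shares. Esrra, the oestrogen-related receptor alpha, was at 100.4, 149 and 133 CPM in T, while LPE gave 49.2, 63.7 and 47.8 and CPE 14.7, 61.5 and 40.9. All 6 serum-free libraries were below T (log2FC -1.25 ± 0.35, adjusted p = 0.014 in LPE and log2FC -1.69 ± 0.36, adjusted p = 0.0019 in CPE). Gabpa, the DNA-binding part of the ETS factor GABP, fell from 303 ± 15.5 to 198 ± 36.0 CPM in LPE (log2FC -0.61 ± 0.15, adjusted p = 0.006) and 214 ± 29.6 in CPE (log2FC -0.50 ± 0.15, adjusted p = 0.019). Nrf1 was at 60.0, 62.5 and 45.1 CPM in T, while LPE gave 42.8, 9.32 and 25.6 and CPE 47.5, 40.7 and 47.7. There was a call in LPE (log2FC -1.11 ± 0.40, adjusted p = 0.047) and none in CPE (-0.30 (adjusted p = 0.6)). Yy1 was not called (0.19 (adjusted p = 0.61) and 0.11 (adjusted p = 0.77)), nor was Tfam, which packs mitochondrial DNA (-0.30 (adjusted p = 0.14) and -0.39 (adjusted p = 0.056)). Sp1, a general promoter factor, rose (log2FC 0.84 ± 0.16, adjusted p = 0.00085 in LPE and log2FC 1.01 ± 0.16, adjusted p = 0.00015 in CPE). The coactivators Ppargc1a and Ppargc1b had 0 counts in all 9 libraries, under the same limit of 3 counts. The call of Esrra in LPE was lost on leaving out T2 or LPE3 (adjusted p = 0.054 to 0.069). That of Nrf1 was lost on leaving out T1, T2, T3, LPE2 or LPE3 (adjusted p = 0.066 to 0.15) and with only the 2 media compared in the fit (adjusted p = 0.095), and its log2 fold change was -0.69 without LPE2 and -1.66 without LPE1. That of Gabpa in CPE was lost on leaving out T2, T3, CPE1 or CPE2 (adjusted p = 0.051 to 0.091). Whether the levels of these regulators bear on the subunit genes was not tested.

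Apart from the media, the subunit genes varied less between libraries of 1 medium than genes at large did. Their median coefficient of variation was 10.4% in T, 21.4% in LPE and 15.8% in CPE. Over all tested genes it was 13.6%, 26.9% and 22.3%, the genes not being matched for level. Of the 69 genes, 24 of the 41 calls in LPE against T (21 lower and 3 higher), 18 of the 31 in CPE against T (15 lower and 3 higher) and 3 of the 9 in CPE against LPE held in all 15 settings. The rises of Uqcrb, Cox5a and Atp5g3 held in all 15 settings in both LPE and CPE.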

How the data were processed

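The 9 libraries, 3 for each medium, were made from total RNA after removal of ribosomal RNA with a strand-keeping kit and read in pairs of 101 cycles, per the labels' protocols. The submitters' processing notes name CASAVA 1.8.2 and Trimmomatic 0.33, STAR 2.5.1 as well as DESeq2, and build rn6. For the annotation the sources used here give no name. The authors' deposited tables hold raw counts per gene symbol for either strand and for each strand. The gene-strand counts were used, the other strand holding 0.822% to 0.986% of stranded reads. The 4 summary lines entered neither the library size nor any test, and 51.7% to 67.6% of all reads were multimapping.

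Counts were tested with edgeR 4.0.16 (R 4.3.3): a quasi-likelihood F test over the 9 libraries together, 1 mean per medium, TMM factors and filterByExpr (10 counts in enough libraries, 15 in total), which kept 9130 genes and all 69 described here. Adjusted p is Benjamini-Hochberg over the 9130 genes, called under 0.05. CPM are counts per 1e6, with TMM factors for single genes. Errors after ± are SD for CPM and SE for log2 fold changes. The code was tested on simulated data. Genes and lists were chosen with earlier results of these data known. Genes were named by rule: per complex and comparison the largest called rise and fall, fixed genes of known role, and from each list up to 2 called rises and 2 falls with at least 5 CPM. The other genes named were chosen after their values were seen, and 1 gene is counted in the totals but not reported here by itself. Alternatives were RLE, upper-quartile or no scaling factors, no filter, DESeq2 1.42.0, 2 media only, a replicate block, either strand, thinning and leaving out each library. Promoters, synonyms and pseudogene names come from RefSeq (GRCr8), a build other than rn6, and all 69 symbols matched, 15 by synonym only.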

Additional observations from a re-analysis of the deposited data

How the results depend on the processing

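Over 15 settings per comparison no call of the 69 genes changed direction. Leaving out 1 library at a time gave 27 to 40 calls in LPE against T (4 to 6 higher, 23 to 34 lower, median log2 fold change -0.615 to -0.509), 22 to 30 in CPE against T (3 to 5 higher, 18 to 26 lower, median -0.482 to -0.395) and 4 to 10 in CPE against LPE (3 to 9 higher, 1 to 2 lower, median 0.072 to 0.181). Thinning counts to the lowest library total moved the LPE median to -0.506 and gave 5 higher and 2 lower calls in CPE against LPE. DESeq2 gave 2 lower calls there, and the fit to those 2 media alone 4 calls, 3 of them higher. The cause of these moves was not tested, other than that leaving out libraries or media leaves fewer samples and thinning fewer reads. The 3 scaling alternatives gave 40 to 41 calls in LPE against T and 31 to 32 in CPE against T. Libraries of the same replicate number did not deviate together (correlations -0.028 to 0.010, against -0.043 to 0.036 for different numbers), so the numbers do not pair the samples. A fit with the replicate block gave 38 calls (5 higher, 33 lower) in LPE against T, 29 (5 and 24) in CPE against T and 8 (7 and 1) in CPE against LPE. With the block, adjusted p was 0.059 for Ndufb2, 0.062 for Atp5b and 0.062 for Atp5j in LPE against T, 0.06 for Ndufb5 and 0.062 for Atp5j in CPE against T, and 0.06 for Cox7b in CPE against LPE, all called without it. With reads on either strand the log2 fold change of Cox7a2 in LPE against T went from -0.82 to -1.28 and that of Cox7b in CPE against LPE from 0.79 to 0.46. Depth limits the genes at low level: 1 count is worth 0.226 to 0.589 CPM.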
